A study of Mus musculus with 12 samples.

Results

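The EGF family is described here by 10 genes of the count table, chosen by symbol. They comprise 7 ligands (Areg, Ereg, Hbegf, Tgfa, Btc, Epgn and Nrg1) and 3 ErbB receptors (Egfr, Erbb2 and Erbb3), out of 55573 genes in all. The rule uses the symbol and no measured value, but members and the gene lists below were chosen with earlier results of these data known. RNA-sequencing was performed on tumourspheres, which are cells grown in suspension, of 3 independent mouse spindloid mammary tumour lines (A1005, A1129 and A1471). Each line was treated for 24 h with DMSO, the Met inhibitor Crizotinib, the FGFR inhibitor PD173074 or both (combination), which gives 12 libraries with 1 library per line and treatment and n = 3 lines per treatment. All 4 groups carry the genotype MMTV-Metmt;Trp53fl/+;Cre, so the Met transgene under the MMTV promoter, the Cre recombinase and the conditional Trp53 allele are common to controls and treated spheres. The serum-free sphere medium of the study's methods contained recombinant EGF and bFGF, so ligand for Egfr was supplied in every group. The tumours came from mammary tissue. Of 10 epithelial markers 5 (Epcam, Cdh1, Krt5, Krt14 and Cldn7) were too low to test, while Krt8, Krt18, Krt19, Cldn3 and Cldn4 could be tested. In the DMSO spheres of A1005, A1129 and A1471 Krt18 stood at 11.9, 38.1 and 10 CPM and Krt8 at 14.6, 1.12 and 5.46. Krt19 (44, 0.0658 and 0.0691 CPM) and Cldn3 (3.12, 0 and 0.0691) were near 0 outside A1005, and Cldn4 was low throughout (0.0781, 0.987 and 0.276). Of 10 mesenchymal markers Snai2 and Cdh2 were too low to test, Col1a1 was near 0 in A1129 and A1471, and the filament gene Vim stood at 2482 to 3095 CPM (counts scaled to a common library size) in the DMSO spheres.

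EGF family ligands are made as membrane-anchored precursors that are released by proteases, and they bind ErbB receptors on the same or on neighbouring cells. Amphiregulin, TGF-alpha and epigen bind Egfr, betacellulin, HB-EGF and epiregulin bind Egfr and ErbB4, and neuregulins bind ErbB3 and ErbB4. ErbB2 has no known ligand and acts as the preferred partner of the other receptors, and signalling from these pairs reaches ERK and PI3 kinase, the pathways that Met and FGFR also use. Tumour cells under inhibitors of other receptor kinases can draw on ErbB signalling, and the comparisons below ask which ligand and receptor transcripts were present under each inhibitor and under both.

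With both inhibitors Areg and Hbegf fell in an unpaired test. Comparing each treated library with the DMSO library of the same line (cell line as a block), Areg, Hbegf, Tgfa and Btc fell and all 3 receptors rose, where 26.2% of all tested genes fell and 28.6% rose. Ereg also fell, but it was present in A1005 alone. None of the 9 tested members passed the threshold with Crizotinib alone, and with PD173074 alone Btc did, as lower, with the block. The largest fall among the members was that of Areg, from 19.9 ± 13.3 CPM (SD, n = 3) to 0.368 ± 0.137 CPM.

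The total per library was 13031492 to 17750476 counts. Levels are TMM-scaled CPM, fold changes are log2 values with their standard errors (SE) from the quasi-likelihood test of edgeR over 13836 genes, and adjusted p is by Benjamini-Hochberg over all of them with a threshold of 0.05. Of the 10 members 9 passed the filter on low counts. Epgn, at 0 to 8 counts per library, did not. Deviations from the treatment means correlated between libraries of the same line with a mean r of 0.871, against -0.422 between lines, so the value with the cell line as a block is given wherever it changes a call. In bulk RNA, fewer cells of a type and less RNA per cell cannot be told apart.

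The ligand genes Ereg, Areg and Btc lie near each other on mouse chromosome 5 with Epgn (build GRCm38, GENCODE M21). Ereg is at chr5:91074622-91093646, Areg at chr5:91139599-91148432, Btc on the opposite strand at chr5:91357261-91402994 and Epgn at chr5:91027464-91035215. Tgfa is at chr6:86195223-86275719, Egfr at chr11:16752203-16918158, Erbb2 at chr11:98412470-98437716 and Erbb3 at chr10:128567523-128589652. RefSeq promoter windows (GRCm38.p6, 250 bases before to 50 after the start) were matched for 6 members. Those of Areg and Tgfa, which fell furthest and least among the matched ligands in the block comparison, and of Erbb2, the main receptor transcript, are printed 5′ to 3′ on the gene's strand to show what the windows share and where they differ. The capitals mark matches, on either strand, to the cAMP response element TGACGTCA, the GC box GGGCGG and the TATA box TATAAA. The windows are chr5:91139349-91139648 for Areg, chr6:86194972-86195271 for Tgfa and chr11:98412234-98412533 for Erbb2, all on the plus strand.
Areg: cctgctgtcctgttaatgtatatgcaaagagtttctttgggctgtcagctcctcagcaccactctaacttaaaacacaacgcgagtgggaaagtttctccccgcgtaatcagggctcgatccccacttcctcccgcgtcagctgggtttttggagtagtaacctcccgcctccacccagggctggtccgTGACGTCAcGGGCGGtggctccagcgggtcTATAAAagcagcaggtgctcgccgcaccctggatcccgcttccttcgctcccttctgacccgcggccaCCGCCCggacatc
Tgfa: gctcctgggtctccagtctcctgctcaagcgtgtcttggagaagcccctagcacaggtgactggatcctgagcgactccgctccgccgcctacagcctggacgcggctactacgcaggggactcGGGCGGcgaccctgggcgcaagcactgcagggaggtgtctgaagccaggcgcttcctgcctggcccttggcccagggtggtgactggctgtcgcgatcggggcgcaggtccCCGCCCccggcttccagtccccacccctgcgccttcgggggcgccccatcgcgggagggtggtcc
Erbb2: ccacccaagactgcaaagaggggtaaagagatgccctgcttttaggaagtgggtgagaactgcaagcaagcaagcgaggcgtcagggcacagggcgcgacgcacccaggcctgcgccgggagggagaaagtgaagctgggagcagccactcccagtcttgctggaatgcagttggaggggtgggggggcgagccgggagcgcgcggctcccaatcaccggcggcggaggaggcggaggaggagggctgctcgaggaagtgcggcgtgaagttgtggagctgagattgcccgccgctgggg
The Areg window holds 1 cAMP response element 61 bases before the start, GC boxes 52 bases before and at base 38 after it, and a TATA box 31 bases before it. The Tgfa window holds 2 GC boxes and no match to the other motifs, and that of Erbb2 holds none of them. Of 32851 mouse promoter windows of the same length, 1.79% hold the cAMP response element, 13.6% the TATA box and 35.7% the GC box. Searches for the AP-1 site TGANTCA, held by 7.81% of windows, and the ETS site CCGGAAG, held by 8.86%, gave no match in these 3 windows. Only these exact letters were searched, so sites of either kind with other letters would be missed. The shorter run GGAAG, without CC before it, occurs in all 3 windows on one strand or the other and was not counted. Among the other matched members, Btc had no match to any of the 5 motifs, Epgn had a TATA box, and Egfr had an ETS site and a GC box. These matches describe letters in the windows and are no measurement of binding.

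Areg encodes amphiregulin, the Egfr ligand best known for its part in mammary duct growth. In DMSO it stood at 35.3 CPM in A1005, 13.4 in A1129 and 11.1 in A1471. With Crizotinib the values were 39.2, 7.4 and 10.6 CPM in the same order, and with PD173074 16.4, 8.01 and 6.41. With the combination they were 0.500, 0.376 and 0.226 CPM. All 3 combination libraries lay below each of the other 9, whereas the ranges of DMSO, Crizotinib and PD173074 overlapped. The combination lowered Areg by a log2 change of -5.71 (SE 0.85, edgeR adjusted p = 0.00259), and the block gave -5.72 with adjusted p = 1.9e-06. In raw counts the fall was from 452 to 9 in A1005, from 204 to 6 in A1129 and from 161 to 3 in A1471. The ratio of CPM within a line was thus 70.5-fold in A1005 (95% exact binomial interval 36.8 to 155), 35.7-fold in A1129 (16.1 to 98.4) and 49.1-fold in A1471 (16.5 to 241), where the intervals cover counting error only. The intervals of the 3 lines overlapped, so a different size of fall between lines was not detectable at this depth.

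Hbegf encodes HB-EGF, a heparin-binding ligand of Egfr and ErbB4. It stood at 23.4, 63.5 and 50.3 CPM in the DMSO spheres of A1005, A1129 and A1471. The values were 35.1, 54.7 and 59.5 CPM with Crizotinib, 19.3, 35.9 and 36.1 with PD173074 and 11.7, 8.84 and 9.58 with the combination. The combination libraries lay below all others, and the line with the lowest level in DMSO, A1005, had the highest in the combination. The log2 change against DMSO was -2.19 (SE 0.39, edgeR adjusted p = 0.00613), and blocking by line gave -2.05 with adjusted p = 2.2e-04. Within lines the fall was 2.01-fold in A1005 (counting interval 1.68 to 2.40), 7.19-fold in A1129 (6.02 to 8.64) and 5.25-fold in A1471 (4.34 to 6.39). Here the interval of A1005 lay apart from those of the other lines, with 1 library per line and treatment and so no replicate of that difference. Without A1005 the unpaired fit still called Areg and Hbegf as lower. Without A1129 the unpaired fit called no member in the combination against DMSO, and without A1471 likewise none. Those fits called 324 of 13791 and 120 of 14021 genes in all, against 1990 of 13836 with every line. Their log2 changes were -5.94 and -5.76 for Areg and -1.79 and -2.06 for Hbegf. The blocked fits called both Areg and Hbegf without any 1 line.

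Tgfa encodes TGF-alpha, a ligand of Egfr. Its level was 17.7, 35.2 and 13.1 CPM in DMSO in A1005, A1129 and A1471, 18.3, 52.6 and 14.5 with Crizotinib, 7.49, 17.4 and 7.76 with PD173074 and 8.34, 8.02 and 2.04 with the combination. Combination and DMSO did not overlap, but in A1005 the combination library lay no lower than that of PD173074. The unpaired test gave a log2 change of -1.84 (SE 0.69) with an edgeR adjusted p of 0.106, and with the block Tgfa fell by 1.81 with adjusted p = 9.7e-04.

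Btc encodes betacellulin. Its level differed widely between lines, at 1.09, 13.7 and 1.73 CPM in DMSO in A1005, A1129 and A1471. It was 3.01, 21.1 and 2.80 CPM with Crizotinib, 0.181, 3.86 and 0.569 with PD173074 and 0.334, 1.32 and 0.226 with the combination. Every line lay highest with Crizotinib and lower than DMSO with PD173074 and with the combination, while the treatment ranges overlapped because A1129 stood above the others throughout. With the block Btc fell by 2.89 on the log2 scale in the combination (edgeR adjusted p = 1.5e-04) and by 1.83 with PD173074 (0.0211, but 0.166 without A1129 and 0.252 without A1471), whereas the unpaired values were -3.12 (SE 1.44, adjusted p = 0.186) and -1.84 (SE 1.37, adjusted p = 1). The Crizotinib value with the block was 0.86 (95% interval 0.23 to 1.48), with an edgeR adjusted p of 1 over all genes. The counts behind A1005 and A1471 were small, at 14 and 25 in DMSO and 6 and 3 with the combination.

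Ereg, which encodes epiregulin, was a transcript of A1005 alone. That line had 57.1 CPM in DMSO, 57.2 with Crizotinib, 30.0 with PD173074 and 8.12 with the combination, from 731, 837, 496 and 146 counts. A1129 and A1471 had 0 or 1 count in every library. Taking 3 counts per library as the floor, the DMSO level in A1005 was at least 289-fold higher than in A1129 and at least 275-fold higher than in A1471. The combination library of A1005 was 7.03-fold lower than its DMSO library (95% counting interval 5.88 to 8.46). The fitted change was -2.80 (SE 3.38, edgeR adjusted p = 0.65) in the unpaired fit and -2.77 in the blocked one (adjusted p = 1.2e-04). The blocked call rests on the libraries of 1 line and on the spread borrowed from the other genes, since Ereg did not pass the filter when A1005 was left out. Other transcripts also set A1005 apart in DMSO, among them the keratin gene Krt19 (44.0 CPM against 0.0658 and 0.0691) and the leukocyte gene Ptprc (13.6 CPM against 0.132 and 0.138). Of the 10 leukocyte markers examined 6, including Adgre1, Itgam and Tyrobp, had at most 3 counts in every library, and the summed level of all 10 was 24.8 to 86.0 CPM in DMSO and 15.1 to 61.3 CPM in the combination. Their part in the Ereg level was not tested.

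Nrg1, the neuregulin gene whose product binds ErbB3 and ErbB4, did not follow the other ligands. Its level was 5.46, 9.54 and 4.77 CPM in DMSO in A1005, A1129 and A1471, 5.33, 7.66 and 5.18 with Crizotinib, 3.81, 14.7 and 8.83 with PD173074 and 4.06, 19.8 and 6.64 with the combination. The treatment ranges overlapped, and A1129 and A1471 lay above DMSO in the combination while A1005 lay below it. The log2 change was 0.62 (95% interval -0.78 to 2.03, edgeR adjusted p = 0.574) unpaired and 0.43 (-0.29 to 1.16, adjusted p = 0.283) with the block. Without A1005 the blocked fit called Nrg1 as higher. Epgn, which encodes epigen, had 0 to 8 counts in every library, and no change was detectable at this depth.

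**Figure D1:**
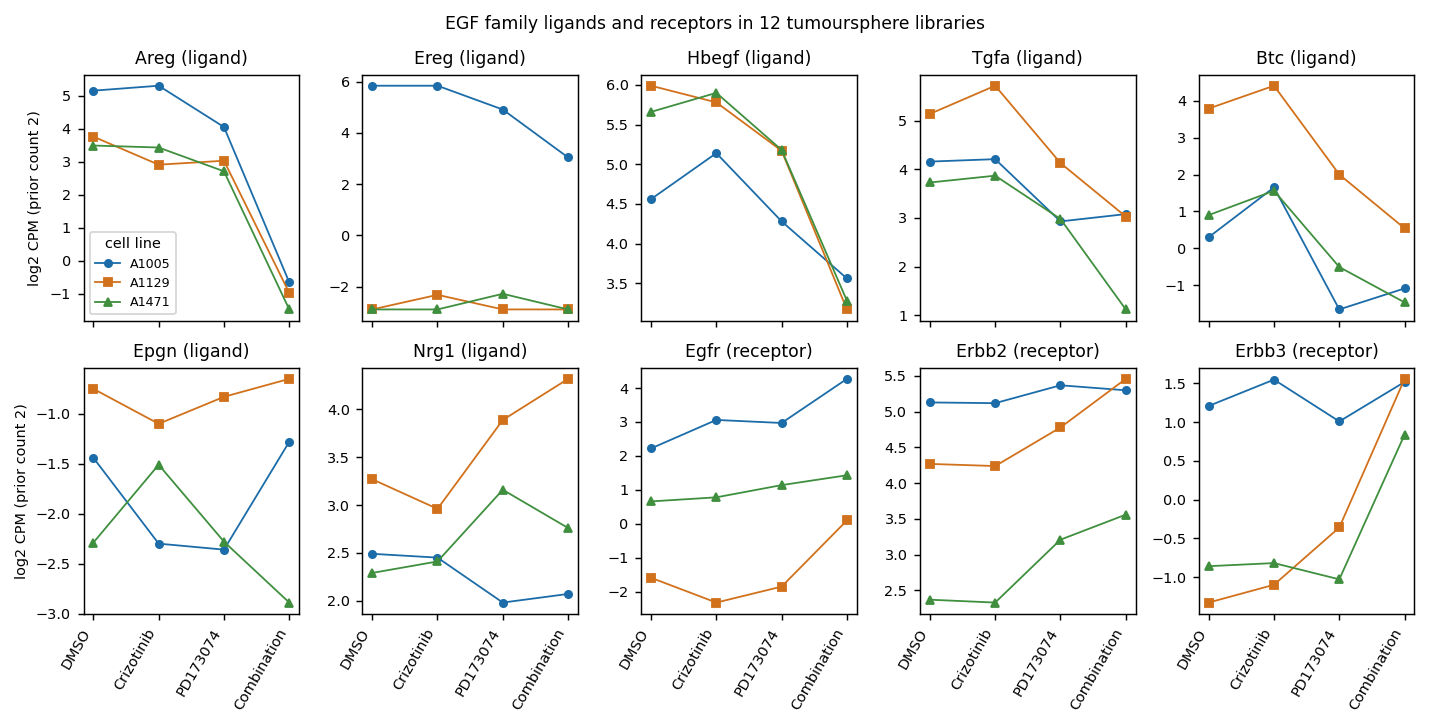
Level of each of the 10 genes as log2 CPM (prior count of 2) in the 4 treatments, with 1 line of symbols per cell line and a separate vertical scale in each panel. Areg, Hbegf and Tgfa drop in all 3 cell lines with the combination, Ereg is seen in A1005 only, and the receptors Egfr, Erbb2 and Erbb3 lie higher with the combination than with DMSO in each line. For Erbb2 and Erbb3 in A1005 and Egfr in A1471 the counting interval of that ratio includes no change.

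Of the receptors, Egfr, which binds most of the ligands above, was low and uneven between the lines. In DMSO it had 4.53 CPM in A1005, 0.197 in A1129 and 1.45 in A1471. With Crizotinib it had 8.20, 0.0660 and 1.58 CPM, with PD173074 7.68, 0.143 and 2.06, and with the combination 19.1, 0.940 and 2.57. Each line was highest with the combination, but the ranges overlapped because A1005 lay above the other lines in every treatment. The combination library held 4.22-fold the DMSO level in A1005 (counting interval 3.19 to 5.68) and 1.77-fold in A1471 (0.997 to 3.21). In A1129 only 3 counts were found in DMSO against 15 in the combination, a ratio of 4.76 with an interval of 1.35 to 25.7. The unpaired change was 1.87 (SE 1.73, edgeR adjusted p = 0.532), and with the line as block Egfr rose by 1.72 (adjusted p = 0.0037). Without A1005 the block no longer called Egfr.

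Erbb2, the receptor without a known ligand, was the most abundant receptor transcript per exon length in every library. It stood at 35, 19.1 and 5.04 CPM in DMSO in A1005, A1129 and A1471, at 34.6, 18.8 and 4.89 with Crizotinib, at 41.3, 27.4 and 9.11 with PD173074 and at 39.3, 43.7 and 11.7 with the combination. The order of the lines was A1005, A1129, A1471 in the first 3 treatments, and A1129 passed A1005 with the combination. The rise was 2.29-fold in A1129 (counting interval 1.99 to 2.63) and 2.32-fold in A1471 (1.75 to 3.11), whereas the ratio in A1005 was 1.12 with an interval that includes 1 (0.997 to 1.27). The unpaired change was 0.68 (SE 0.86, edgeR adjusted p = 0.669), and with the line as block Erbb2 rose by 0.85 (adjusted p = 0.00652). The blocked call was lost without A1129 and without A1471.

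Erbb3, the kinase-impaired receptor of neuregulins, had 2.19, 0.263 and 0.414 CPM in DMSO in A1005, A1129 and A1471, 2.80, 0.330 and 0.431 with Crizotinib, 1.87, 0.644 and 0.356 with PD173074 and 2.72, 2.82 and 1.66 with the combination. The lines thus lay close together with the combination, while in the other treatments A1005 stood above the rest. The ratio to DMSO was 10.7 in A1129 (45 against 4 counts, interval 3.91 to 41.0), 4.01 in A1471 (22 against 6 counts, 1.58 to 12.1) and 1.25 in A1005 (0.768 to 2.06). The unpaired change was 1.33 (SE 1.02, edgeR adjusted p = 0.441), and with the line as block Erbb3 rose by 1.74 (adjusted p = 0.021). The blocked call was lost without A1129 and without A1471, and the unpaired fit called Erbb3 without A1005.

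**Figure D2:**
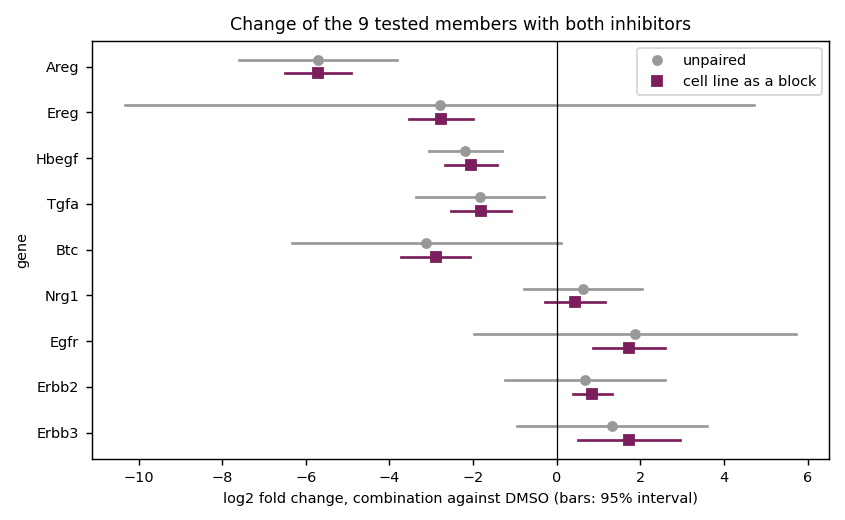
Log2 fold change of the 9 tested genes in the combination against DMSO (horizontal axis) with 95% intervals, from the unpaired fit (circles) and the fit with the cell line as a block (squares), n = 3 lines. The unpaired intervals of Areg, Hbegf and Tgfa lie below 0, and with the block only the interval of Nrg1 includes 0.

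In counts, the unpaired test called 2 of the 9 tested members as lower in the combination against DMSO, where 8.28% of all tested genes were called as lower, and 0 as higher, where 6.10% were. With the block 5 members were lower, among them Ereg through A1005 alone, and 3 were higher, against a background of 26.2% and 28.6% of genes. Cell type markers moved in the same comparison. With the block Krt18 (-1.0), Krt19 (-2.69) and Twist1 (-1.10) fell and Sparc (2.02), Col1a1 (1.83), Col3a1 (1.80) and Zeb2 (0.51) rose, and Twist1 alone passed unpaired. The calls of Krt19 and Col1a1 rest on A1005, since both were near 0 in the other lines. Krt8 (0.46), Cldn3, Cldn4, Vim (-0.17), Zeb1 and Fn1 were not called. Of the leukocyte markers Cd68 (0.82) rose and Cd14 (-1.09) fell with the block. The summed level of the 10 epithelial markers was 16.5 to 74.6 CPM in DMSO and 7.62 to 52.3 CPM in the combination, and that of the 10 mesenchymal markers 3506 to 5914 and 3617 to 10695 CPM. Their part in the members' changes was not tested. The median log2 change of the 6 tested ligands was -2.49 unpaired and -2.41 with the block, and that of the 3 receptors was 1.33 and 1.72, while the median over all genes was 0.02 and 0.03. Of the ligands, 4 (Areg, Hbegf, Tgfa and Btc) were lower in all 3 lines, as were 31.9% of genes, and the 3 receptors were higher in all 3 lines, as were 34.0%. The counting intervals of the receptor ratios included no change for Erbb2 (0.997 to 1.27) and Erbb3 (0.768 to 2.06) in A1005 and for Egfr (0.997 to 3.21) in A1471. DESeq2, one of the tools that the study's methods name, called 3 members unpaired, namely Areg, Hbegf and Tgfa (-1.81, DESeq2 adjusted p = 0.034). It gave an adjusted p to 7 members, leaving out Ereg, Btc and Epgn, and called 2948 genes in all, against 1990 in the unpaired edgeR test.

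**Figure D3:**
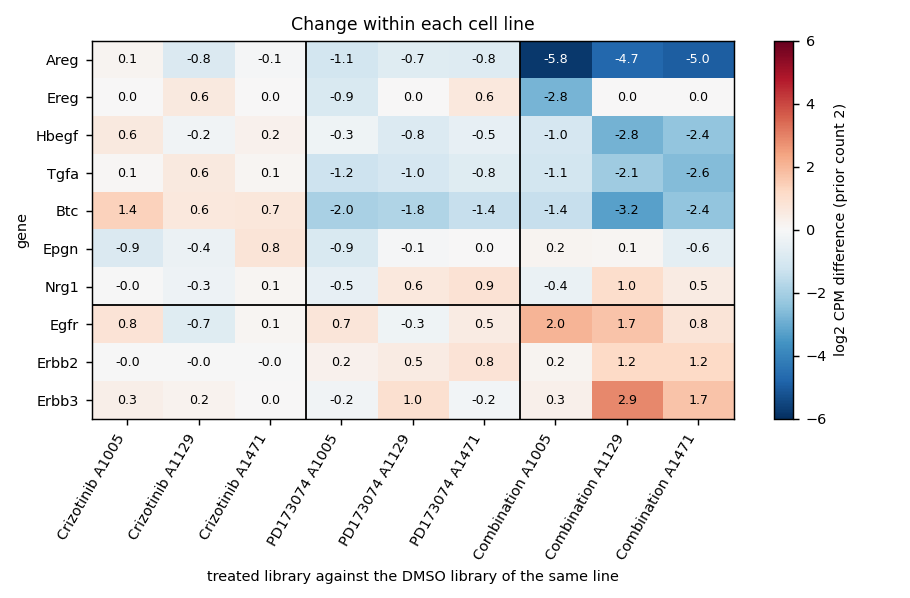
Difference in log2 CPM (prior count of 2, colour and printed value) between each treated library and the DMSO library of the same line, for the 10 genes in rows and the 3 treatments in blocks of 3 lines. The ligands Areg, Hbegf, Tgfa and Btc are blue in all 3 lines with PD173074 and deeper blue in A1129 and A1471 with the combination, and the receptors are red or pale red in the combination columns.

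For the inhibitors given alone, the question was whether either shifted the family by itself. Crizotinib gave 0 called members, with 0% of all genes called in the unpaired edgeR test and 0% with the block, and 18 and 258 genes at an unadjusted p under 0.05. The log2 changes of the members with Crizotinib ranged from -0.12 to 0.71 unpaired and from -0.20 to 0.86 with the block. For Crizotinib DESeq2 called 0 members and 1 gene in all. PD173074 gave 0 called members unpaired, at a background of 0% of genes and 307 genes at an unadjusted p under 0.05. For PD173074 DESeq2 called 0 members and 24 genes in all. With the block 1 member, Btc, was lower and 0 were higher, where 0.520% of genes were lower and 1.62% higher. Areg, with -0.88 (95% interval -1.41 to -0.35), and Tgfa, with -1.0 (-1.68 to -0.31), had edgeR adjusted p values of 0.096 and 0.141 in the blocked fit. In all 3 lines 4 ligands (Areg, Hbegf, Tgfa and Btc) were lower with PD173074 than with DMSO, as were 23.2% of all genes, and Erbb2 was higher in all 3, as were 24.1%.

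Set against each inhibitor alone, the combination again had lower Areg and Hbegf. These comparisons share the combination libraries with the one against DMSO, so they add no separate evidence. Against Crizotinib the unpaired test called Areg (-5.65) and Hbegf (-2.31) as lower, edgeR adjusted p = 0.00287 and 0.00512, at a background of 7.78% of genes lower and 5.40% higher. With the block 5 members were lower and 3 higher, at 26.0% and 27.4% of genes. Against PD173074 the unpaired test called Areg (-4.76) and Hbegf (-1.60) as lower, edgeR adjusted p = 0.00977 and 0.0446, at 3.93% of genes lower and 0.838% higher. That Hbegf call was lost without a filter on low counts (0.057), with only the groups compared (0.0945), unpaired without A1129 (0.456) or A1471 (0.404), and with the block without A1471 (0.0542). The unpaired Areg call was lost without A1129 or A1471 as well. With the block Areg, Ereg and Hbegf were lower and Egfr and Erbb3 higher, at 20.2% and 19.6% of genes. Tgfa (-0.81, edgeR adjusted p = 0.0703) and Btc (-1.07, 0.0605) did not pass the threshold against PD173074 with the block over all 3 lines. Without A1005 both did, Tgfa with -1.44 (edgeR adjusted p = 0.00371) and Btc with -1.51 (0.0101).

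Whether the single effects add up to that of the combination was tested as an interaction on the log2 scale. It was -4.70 for Areg (SE 1.04) with an edgeR adjusted p of 0.0803 unpaired, and 0 of the 9 members passed, at a background of 0.918% of genes. At an unadjusted p under 0.05 there were 1250 genes, and DESeq2 called Areg among 398 genes in all. With the block 4 ligands departed downwards, at 10.7% of genes, and 0 members upwards, at 5.46%. One of the 4, Ereg, had counts in A1005 alone, with 1 library per treatment. These were Areg (-4.64), Ereg (-1.96), Hbegf (-1.66) and Btc (-1.92), with edgeR adjusted p values of 1.4e-04, 0.0201, 0.0188 and 0.0287. Without A1129, and likewise without A1471, the blocked fit called Areg alone. Tgfa had -1.10 (95% interval -2.08 to -0.12, edgeR adjusted p = 0.114), and the receptors had 0.37 to 1.34, none past the threshold.

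To compare the genes with each other, CPM was divided by exon length in kilobases. That length joins all annotated exons of a gene, such as 1215 bases for Areg, 10351 for Nrg1 and 11326 for Egfr. It can exceed the length of the transcript that is expressed, so the shares and ratios between genes below depend on it. The summed ligand level was 51.3, 33.8 and 22.5 CPM per kb in DMSO in A1005, A1129 and A1471, 57.4, 31.1 and 24.5 with Crizotinib, 26.4, 19.2 and 15 with PD173074 and 6.70, 5.86 and 3.17 with the combination. All 3 combination libraries lay below the other 9, and each PD173074 library lay below the DMSO library of its own line. The summed level of the 3 receptors went the other way, from 7.48, 3.73 and 1.16 CPM per kb in DMSO to 9.68, 8.95 and 2.75 with the combination. The ratio of ligand to receptor transcript was 6.87, 9.05 and 19.3 in DMSO and 0.692, 0.654 and 1.16 with the combination. With PD173074 alone this ratio was 2.96, 3.57 and 7.52, between DMSO and the combination in each line. The sums are descriptions with no test, and each follows its most abundant genes.

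The make-up of the ligand sum differed too. Areg was 56.6%, 32.7% and 40.8% of it in DMSO in A1005, A1129 and A1471, and 6.15%, 5.29% and 5.87% with the combination. Hbegf held 9.44%, 38.9% and 46.3% in DMSO, already the largest share in A1129 and A1471, and 36.1%, 31.2% and 62.5% with the combination. Nrg1 held 2.72% in A1129 in DMSO and 32.7% with the combination, then the largest share in that line. Erbb2 made up 77.9% to 98.4% of the receptor sum in the 12 libraries. Erbb4, the fourth receptor, and Nrg3 had 0 counts in every library, so of the usual receptors for neuregulin Erbb3 was the one detected. Of the 3 other ligand genes, Egf had 6 to 26 counts, Nrg2 0 to 78 and Nrg4 0 to 4, and neither of the 2 that could be tested, Egf and Nrg2, passed the threshold in any comparison.

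**Figure D4:**
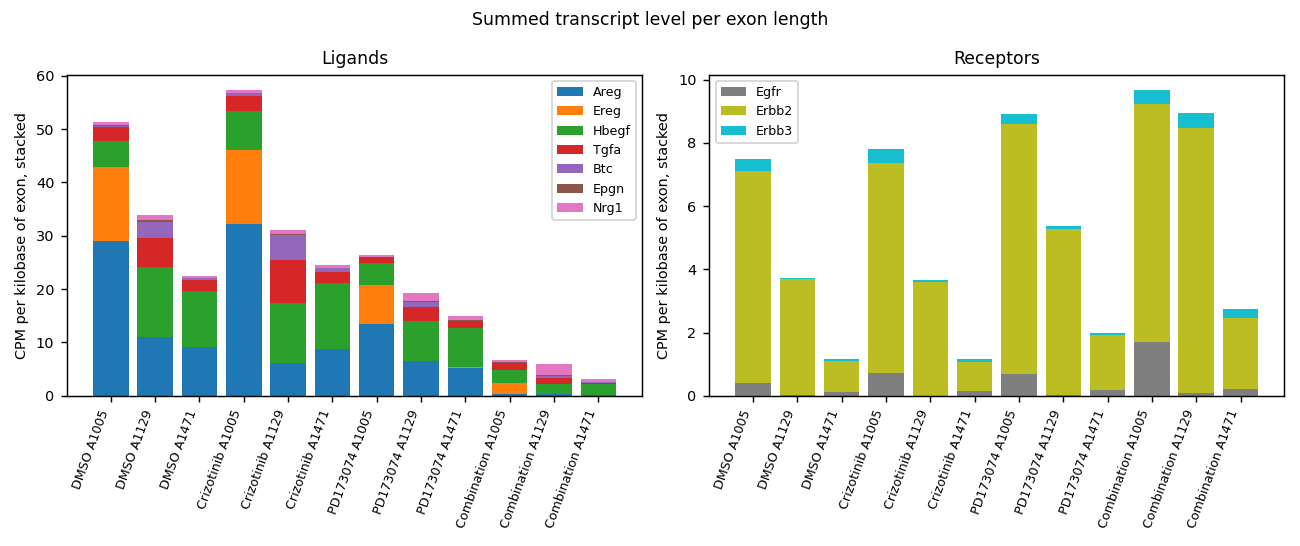
Stacked CPM per kilobase of exon for the 7 ligands (left) and the 3 receptors (right) in each of the 12 libraries, with separate vertical scales. The ligand bars fall from 22.5 to 51.3 in DMSO to 3.17 to 6.70 with the combination, and Erbb2 fills most of every receptor bar.

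The genes around the ligand cluster were examined to see whether the whole region moved. Within 1 Mb of the cluster the table holds 68 genes, of which 28 besides the ligands could be tested. With the block 9 of these were lower and 2 higher in the combination against DMSO, at the background of 26.2% and 28.6% given above, and 1 was called unpaired. The 3 tested ligands had changes of -2.77 to -5.72 with the block, while the lowest among the other genes was that of Odaph at -2.13. The value of Ereg, -2.77, rests on A1005 alone. The nearest tested gene upstream, Mthfd2l, a mitochondrial folate enzyme, had -0.49 with the block (edgeR adjusted p = 0.0174), and the nearest beyond Btc, Parm1, had 2.66 (1.9e-04). Unpaired, neither Mthfd2l nor Parm1 passed (edgeR adjusted p = 0.197 and 0.333). Of the 3 ligands Areg alone passed unpaired (0.00259), while Ereg (0.65) and Btc (0.186) did not. The neighbours thus included changes in both directions.

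**Figure D5:**
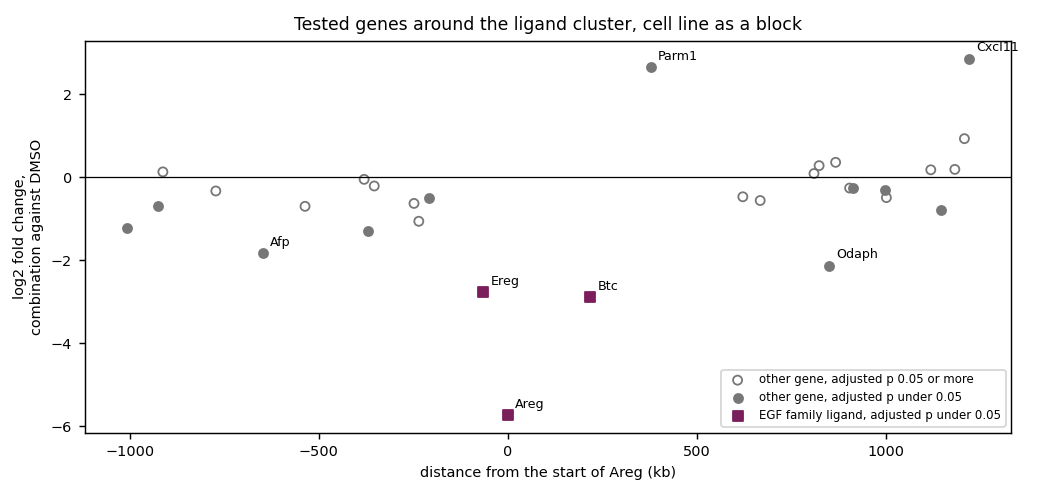
Log2 fold change from the fit blocked by line, for the combination against DMSO, of the tested genes within 1 Mb of the ligand cluster, by the distance of their start from that of Areg in kilobases. Areg, Ereg and Btc (squares) lie at -2.77 to -5.72, below the other tested genes, and filled circles mark other genes past the threshold, in both directions. The value of Ereg rests on A1005 alone.

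Other genes of the pathway were read against the same background, which for the combination against DMSO was 6.10% of genes higher and 8.28% lower unpaired and 28.6% and 26.2% with the block. Of 10 genes that carry out or restrain the release of ligands, all tested, 1 rose unpaired in the combination against DMSO. It was the metalloprotease gene Adam15, from 134 ± 17.3 to 194 ± 17.1 CPM (log2 change 0.54, SE 0.15, edgeR adjusted p = 0.0392). With the block 5 of them rose, namely Adam9, Adam10, Adam15, Rhbdl2 and Timp3, where 28.6% of all genes did, and Adam8 alone fell. Timp3 encodes an inhibitor of such proteases, so the risers were not all release genes, and Adam17 was not called. Adam10 (0.44, edgeR adjusted p = 0.0405) encodes the main sheddase of betacellulin. The list median was 0.31 unpaired, against 0.02 over all genes. Of 17 genes that restrain or turn over ErbB receptors 16 were tested, and 1 rose and 1 fell unpaired. Lrig2 rose from 20.9 ± 1.77 to 40.2 ± 3.49 CPM (0.95, SE 0.16, edgeR adjusted p = 0.00421). Ubash3b, a phosphatase-like gene that binds the ubiquitin ligase Cbl, fell from 6.87 ± 1.76 to 1.27 ± 0.429 CPM (-2.43, SE 0.45, edgeR adjusted p = 0.00712). With the block 3 of the 16 rose and 3 fell, no more than the background share, and the median was -0.13. Of 17 adaptors and early effectors, all tested, Gab1, a docking protein shared by Met and Egfr, was the 1 that rose unpaired (1.82, SE 0.39, edgeR adjusted p = 0.0149), from 11.4 ± 3.36 to 40.2 ± 18.9 CPM, and with the block 4 of the 17 rose and 5 fell, near the background share, with a median of -0.06.

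As a readout of the pathway downstream of these receptors, 6 ERK-responsive genes were set beside the ligands. In the combination 5 of the 6 fell unpaired, where 8.28% of all genes did, among them the ERK phosphatase gene Dusp6, from 183 ± 56.8 to 5.56 ± 3.44 CPM (-5.03, SE 0.54, edgeR adjusted p = 4.9e-04), and the transcription factor gene Etv5, from 68.7 ± 8.08 to 2.14 ± 0.911 CPM (-4.99, SE 0.30, edgeR adjusted p = 4.3e-05). Egr1 had -1.18 (SE 0.67, edgeR adjusted p = 0.282). Their summed level was 728 to 933 CPM in DMSO, 728 to 959 with Crizotinib, 519 to 582 with PD173074 and 31.8 to 93.9 with the combination. PD173074 thus stood between DMSO and the combination in this sum, as it did in the summed ligand level of each line. The part of ERK output in the ligand levels was not tested.

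Likeness was measured as the correlation of log2 CPM over the 12 libraries after centring within each line, and serves as a description, since all 12 points share the same 4 treatments and 3 lines. The genes most like Areg were Kif23 and Top2a, which act in cell division, with r = 0.997 and 0.995, and Slc25a24 with 0.995. Their own changes in the combination were smaller, at -2.37, -2.55 and -0.52. The gene most like Hbegf was Cd44 (r = 0.992, from 568 to 121 CPM), the hyaluronan receptor, followed by Gnpnat1 (0.992) and Prkg2 (0.991). Tgfa was most like Thsd4 (0.996), Btc like Rab7b (0.979), Ereg like Kcne3 (0.974) and Nrg1 like Brwd3 (0.921). Among the receptors Erbb2 was most like Pdgfc (0.995), a PDGF ligand gene that stood at 11.5 CPM in DMSO and 102 with the combination, Egfr like Ptpn3 (0.965) and Erbb3 like Heatr5b (0.985).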

How the data were processed

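RNA was sequenced on a NextSeq500 instrument. Per the labels the submitters' processing notes name bcl2fastq, STAR, HTSeq and build mm10, and strand use and annotation release are not given in the sources used here. The authors deposited raw counts per Ensembl gene for 12 libraries (13031492 to 17750476 counts each). Treatment and cell line came from the labels.

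Low genes were removed by filterByExpr, with minimum counts of 10 per library and 15 in total, and TMM gave the scaling. R 4.3.3 and edgeR 4.0.16 (quasi-likelihood) fitted the 12 libraries unpaired, as the study did with DESeq2 and a second package, and p was adjusted by Benjamini-Hochberg over 13836 genes (threshold 0.05). Same-numbered libraries are the same cell line. Their deviations correlated with r of at least 0.766 in 18 pairs. Alternatives were this block, DESeq2 1.42.0, its size factors, no filter, only the groups compared, total counts and leaving out each line. Lines are separate tumour lines with 1 library per treatment. No 2 libraries agreed within sampling noise (lowest chi-square per degree of freedom 4.9 over 66 pairs). Log2 CPM used a prior count of 2. Coordinates and exon lengths are from GENCODE M21 (55394 of 55573 genes). Reads lack molecular identifiers, so 95% exact intervals and the floor of 3 counts cover counting error only. Exons of Ereg, Tgfa, Nrg1 and Erbb2 overlap a gene on the opposite strand over 3.416%, 1.818%, 4.657% and 0.173% of their length, and such reads could not be assigned with certainty. Named genes were all members, up to 3 genes of each pathway list by smallest p in the combination, the ERK genes, the 3 most similar genes per member and the neighbours of the chromosome 5 cluster. Cell type markers and further shedding genes were named as well. Members and lists were chosen with earlier results of these data known. Figures were drawn with matplotlib 3.10.9, and intervals were computed with scipy 1.17.1.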

Additional observations from a re-analysis of the deposited data

Results flagged for a closer look

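The effect of one inhibitor on 4 ligands differed with and without the other inhibitor, by the interaction term of the edgeR fit with the cell line as a block. The departure from the sum of the single effects was -4.64 for Areg, -1.96 for Ereg, -1.66 for Hbegf and -1.92 for Btc on the log2 scale, with edgeR adjusted p values of 1.4e-04, 0.0201, 0.0188 and 0.0287. The unpaired fit passed none of them. Ereg rests on A1005 alone, and without A1129 or without A1471 the blocked fit called Areg only.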

How the results depend on the processing

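The cell line as a block (the pairing of libraries by line) moved the number of members called from 0 to 1 for PD173074 against DMSO, from 2 to 8 for the combination against DMSO and against Crizotinib, from 2 to 5 against PD173074 and from 0 to 4 for the departure from additivity, and it left that for Crizotinib at 0. DESeq2 called 1 member in the departure, and without a filter, or with only the groups compared, 1 was called in the combination against PD173074, since Hbegf lost its call. Leaving out 1 line, unpaired or with the block, gave 0 to 1 members for PD173074 against DMSO, 0 to 7 for the combination against DMSO and against Crizotinib, 0 to 6 against PD173074 and 0 to 4 for the departure. Without A1005 the unpaired fit called 3 members in the combination, both against DMSO and against Crizotinib. For the combination against DMSO and each inhibitor the count of 0 came in the unpaired fits without A1129 and without A1471, where Areg and Hbegf lost their calls. In those fits the genes called in all fell as well. Against DMSO they fell from 1990 to 324 and 120, against Crizotinib from 1823 to 350 and 109, and against PD173074 from 660 to 60 in each. The sign turned only in changes that passed no threshold with all 3 lines. One of them, Nrg1 against Crizotinib, was called without A1005 in the blocked fit (0.93, edgeR adjusted p = 0.0234). For Crizotinib against DMSO the log2 change ranged over the lines left out from -0.44 to 0.09 (0.05 with the block without A1129) for Areg, -0.01 to 0.03 for Ereg, -0.21 to 0.03 for Nrg1 and -0.09 to 0.80 for Egfr. It ranged from -0.20 (-0.19 with the block) to 0.56 for Erbb3 with PD173074, and for Nrg1 from -0.01 to 1.04 against Crizotinib, -0.23 to 0.37 against PD173074 and -0.26 to 0.59 in the departure. The cause was not tested. DESeq2's size factors changed no call, and scaling to total counts moved all 40 mean levels by less than 1 SD. The departure was not run on only the groups compared, since it uses all 4. Low counts limit Epgn in every line, Btc in A1005 and A1471, and Egfr and Erbb3 in A1129 and A1471. They also limit Areg in the combination, at 9, 6 and 3 counts in A1005, A1129 and A1471, the last at the floor of 3 counts.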
